A study of Mus musculus with 2 samples.

Results

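The circular RNAs (circRNAs) of F-box and cullin ligase genes described here are all those that the deposited lists place in the host genes Fbxw7, Fbxw11, Btrc, Fbxo11, Cul1, Cul3, Cul4a, Cul5 and Skp2, by exact symbol. They were 51 circRNAs with junction reads from 8 of these 9 host genes, of 26265 circRNAs from 7256 host genes in all. The libraries came from intestinal cells of Lgr5GFP-CreERT2 mice aged 2 months, sorted by flow cytometry into Lgr5+ cells, labelled ISC (intestinal stem cells), and Lgr5- cells, labelled non-ISC. The reporter is driven by the Lgr5 locus and is carried by both groups, and the number of mice pooled per library is not stated. With 1 library in each group, differences could not be set against a spread between replicates, and p-values were not computed.

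Cullin-RING ubiquitin ligases attach ubiquitin to chosen proteins, most of which are then degraded. A cullin is the scaffold: it holds a RING protein with its ubiquitin-loaded enzyme at one end and, through an adaptor, a substrate receptor at the other. In the SCF type the cullin is CUL1, the adaptor is SKP1 and the receptor is an F-box protein. FBXW7 is the F-box receptor for Notch, MYC, JUN and cyclin E and restrains progenitor growth in the gut, while BTRC and FBXW11 take phosphorylated beta-catenin. Many of these genes also give circRNAs, closed loops in which the donor end of an exon is spliced back to the acceptor end of the same or an earlier exon. Reads that cross such a back-splice junction show the loop.

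Sequencing gave 156582 junction reads labelled ISC, against 76331 labelled non-ISC. Levels are given as junction reads per 1000000 junction reads of the library, and ratios as the level labelled ISC over the level labelled non-ISC, with 95% exact intervals that cover counting error only. To be called higher or lower, a host gene or circRNA needed 10 reads or more in the sum of the libraries, a 2-fold difference, and a ratio interval without 1 in it. Marker genes went against the labels. Lgr5 itself had 0 reads labelled ISC and 7 labelled non-ISC. Of 7 Lgr5 stem cell marker genes with enough reads, 5 were lower and 0 higher, with sums of 345 labelled ISC against 2528 per 1000000 labelled non-ISC. Of 19 epithelial marker genes with enough reads, 18 were lower in the library labelled ISC, and their list summed to 345 against 47045 per 1000000. Epcam and Cdh1, which define epithelium, had 0 reads there, against 59 and 12. Of 26 lymphocyte and immune marker genes, 22 were higher and 0 lower, with sums of 51334 against 3131 per 1000000. Of the 22 stromal, muscle and endothelial marker genes, 7 had reads and 2 had enough, both higher. These were Zeb1, with 649 reads against 12, and Pecam1, with 67 against 7. The list, with 732 reads labelled ISC and 19 labelled non-ISC, summed to 4675 against 249 per 1000000. This sum is mostly that of Zeb1, so the list says little about these cell types as a whole. Ptprc, the pan-leukocyte gene, had 58 reads against 0, and Cd3e had none in either library. The part of these cell type differences in the results below was not tested, and each direction is one between libraries as labelled. In such bulk libraries fewer cells of a type and less RNA per cell cannot be told apart.

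Each circle is marked by the letters at its junction. The junctions shown are those of the circRNAs with at least 10 reads, plus the circles that lead Btrc, Fbxo11, Cul5 and Fbxw11 in the library labelled ISC. Each sequence runs 5′ to 3′ on the strand of the gene, with the last 20 bases of the donor exon in lower case and the first 20 bases of the acceptor exon in capitals. Exon ends and letters are those of GENCODE release M21 transcripts on GRCm38.
Fbxw7 leading circle, chr3:84903501-84904079, plus strand: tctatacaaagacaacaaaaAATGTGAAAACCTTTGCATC
Fbxw7 second circle, chr3:84863964-84904079, plus strand: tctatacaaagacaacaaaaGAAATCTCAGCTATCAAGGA
Cul1 leading circle, chr6:47501168-47502590, plus strand: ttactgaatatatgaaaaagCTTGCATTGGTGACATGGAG
Cul3 leading circle, chr1:80304080-80323056, minus strand: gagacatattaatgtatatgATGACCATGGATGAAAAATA
Cul3 second circle, chr1:80321785-80323056, minus strand: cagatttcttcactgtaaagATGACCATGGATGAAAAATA
Cul4a leading circle, chr8:13136796-13142598, plus strand: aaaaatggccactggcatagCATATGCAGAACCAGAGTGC
Cul5 circle found in both libraries, chr9:53629175-53635065, minus strand: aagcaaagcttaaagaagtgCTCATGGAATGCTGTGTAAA
Cul5 leading circle labelled ISC, chr9:53644487-53655371, minus strand: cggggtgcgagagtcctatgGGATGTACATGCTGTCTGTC
Fbxw11 leading circle labelled non-ISC, chr11:32652748-32711997, plus strand: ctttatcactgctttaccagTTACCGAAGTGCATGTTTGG
Fbxw11 circle found in both libraries, chr11:32708188-32711997, plus strand: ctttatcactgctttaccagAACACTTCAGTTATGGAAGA
Fbxw11 single-exon circle, chr11:32711772-32711997, plus strand: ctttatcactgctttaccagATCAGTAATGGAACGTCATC
Btrc single-exon circle, chr19:45502932-45503163, plus strand: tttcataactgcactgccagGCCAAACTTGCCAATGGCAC
Fbxo11 leading circle labelled ISC, chr17:88000772-88002969, minus strand: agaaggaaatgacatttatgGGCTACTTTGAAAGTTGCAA
The lower-case parts of both Fbxw7 circles are the same letters because they share a donor, as do those of the 3 Fbxw11 circles. The capitals of both Cul3 circles are the same because they share an acceptor.

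Of the 9 host genes, Fbxw7, Cul3 and Cul5 were called higher in the library labelled ISC, none was called lower, and 4 with at least 10 reads were not called. Btrc had fewer than 10 reads and Skp2 had none. Over all 2920 host genes with at least 10 reads, 26.7% were called higher and 22.7% lower. Summed over the host genes, 634 reads labelled ISC stood against 160 labelled non-ISC, a ratio of 1.93 (1.62 to 2.31). The median log2 ratio of the 7 host genes with at least 10 reads was 0.89, beside 0.16 (quartiles -1.05 and 1.52) over all host genes with that many reads. With 0.5 read added to each count, as in these medians, the log2 ratios of the 7 ran between -0.83 (Fbxw11) and 1.43 (Cul3), within the quartiles of all host genes. With the deposited count, over its own totals, in place of junction reads, the summed ratio was 0.611 and that of Fbxw7 0.935. With junction reads scaled to library totals they were 5.44 and 6.02. In all counts here, a circRNA that is not listed for a library enters as 0 reads.

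**Figure D1:**
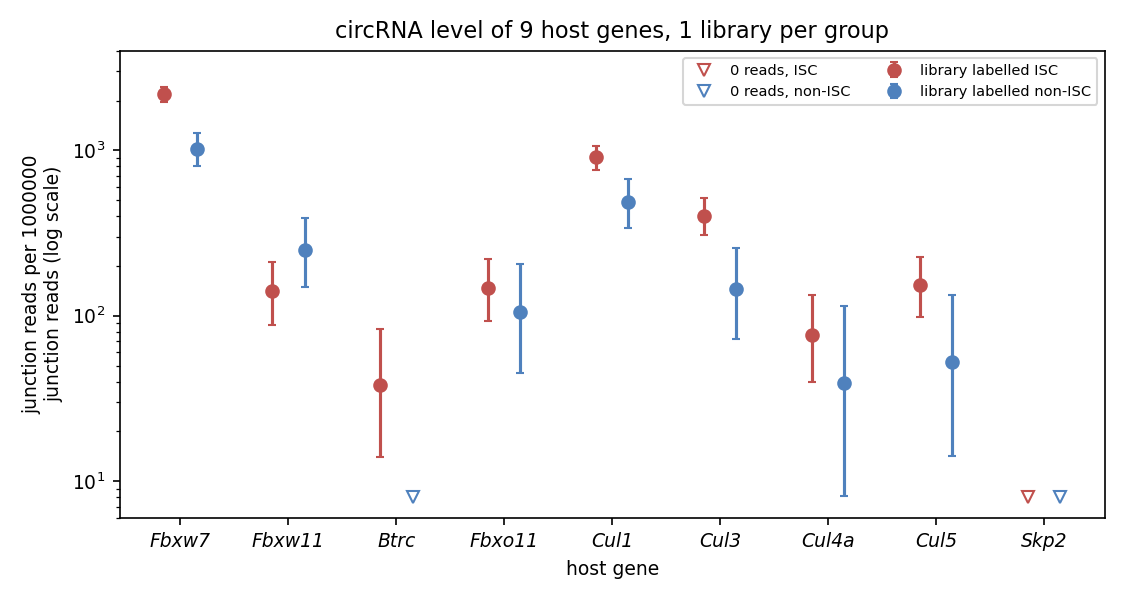
circRNA levels of the 9 host genes in the library labelled ISC (red, left of each pair) and the library labelled non-ISC (blue, right), as junction reads per 1000000 on a log axis, with 95% exact Poisson intervals for counting error. Open triangles mark 0 reads. Fbxw7 stands highest in both libraries, and Fbxw11 alone has the higher point in the library labelled non-ISC.

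Fbxw7 (chr3:84815268-84979198, plus strand) gave the most reads of the 9 host genes in both libraries. Outside the 9, the F-box gene Fbxw4, named after its values were seen, had 257 reads labelled ISC and 158 labelled non-ISC. Fbxw7 had 342 reads labelled ISC and 78 labelled non-ISC, or 2184 and 1022 per 1000000. Its ratio was 2.14 (1.67 to 2.77). Its rank was 59 among 5823 host genes labelled ISC and 177 among 4823 labelled non-ISC. Fbxw7 alone made up 53.9% of the reads of all these host genes labelled ISC and 48.8% of those labelled non-ISC. Without it the summed ratio was 1.74 (1.35 to 2.25).

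A single circle carried most of the Fbxw7 signal in both libraries. It is the closure of 1 exon of 579 nt, exon 3 of transcript Fbxw7-203 and exon 4 of Fbxw7-204. It had 306 reads labelled ISC and 68 labelled non-ISC, a ratio of 2.19 (1.68 to 2.90). Its rank was 47 among 18438 circRNAs labelled ISC and 129 among 12202 labelled non-ISC. Its share of the Fbxw7 reads was 89.5% (85.7 to 92.5) labelled ISC and 87.2% (77.7 to 93.7) labelled non-ISC. These shares were not compared directly. The deposited count of this circRNA equals its junction reads in both libraries. Divided by the totals of the deposited counts, the ratio was 1.34 (1.03 to 1.77) and was not called. The share of the circle in the Fbxw7 sum of that column was 68.3% labelled ISC and 47.6% labelled non-ISC.

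The exon of this circle is the longest internal exon of Fbxw7-203 and lies before the longest intron, of 50795 nt. Of the 6 annotated Fbxw7 transcripts 3 hold it, 2 of them among the 4 protein-coding ones. Fbxw7-201 and Fbxw7-202 begin at other first exons downstream and lack it. The exon holds the annotated start codon of Fbxw7-203, after 69 nt, followed by 510 nt of coding sequence. In human cells a circRNA of FBXW7 has been described as a template for a short protein. Read from the start codon in the letters of the mouse exon, no stop codon is met: 579 is a multiple of 3, and the frame runs across the junction and back to its own start. This describes the reference letters, and translation was not measured.

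The other Fbxw7 circRNAs had few reads. Of 9 Fbxw7 circRNAs, 5 end at 84904079, the donor of the leading circle, which is counted among them, and they held 98.0% of the reads labelled ISC and 92.3% of those labelled non-ISC. The circle of exons 2 to 4 of Fbxw7-204, the second sequence above, had 22 reads labelled ISC and 0 labelled non-ISC, where it has an entry. The exact 95% lower limit of its ratio was 2.67. Set against the 3 counts that a count of 0 allows in that library, the 22 reads were at least 3.57-fold higher, a value that leaves out the counting error of the 22. It has 691 nt, and from the start codon its frame meets a stop after 215 codons, 45 of them past the junction.

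The 2 Fbxw7 circles with reads only in the library labelled non-ISC were below the 10-read minimum. One, from 84890095 to 84904079, joins exons 2 and 3 of Fbxw7-203 and had 4 reads. The other, from 84954875 to 84958645, joins exons 2 and 3 of Fbxw7-201, which all 4 protein-coding transcripts hold, and had 6. Neither has an entry in the library labelled ISC, and a missing entry need not mean 0 reads. The remaining 5 circles had 1 to 5 reads labelled ISC and none labelled non-ISC.

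**Figure D2:**
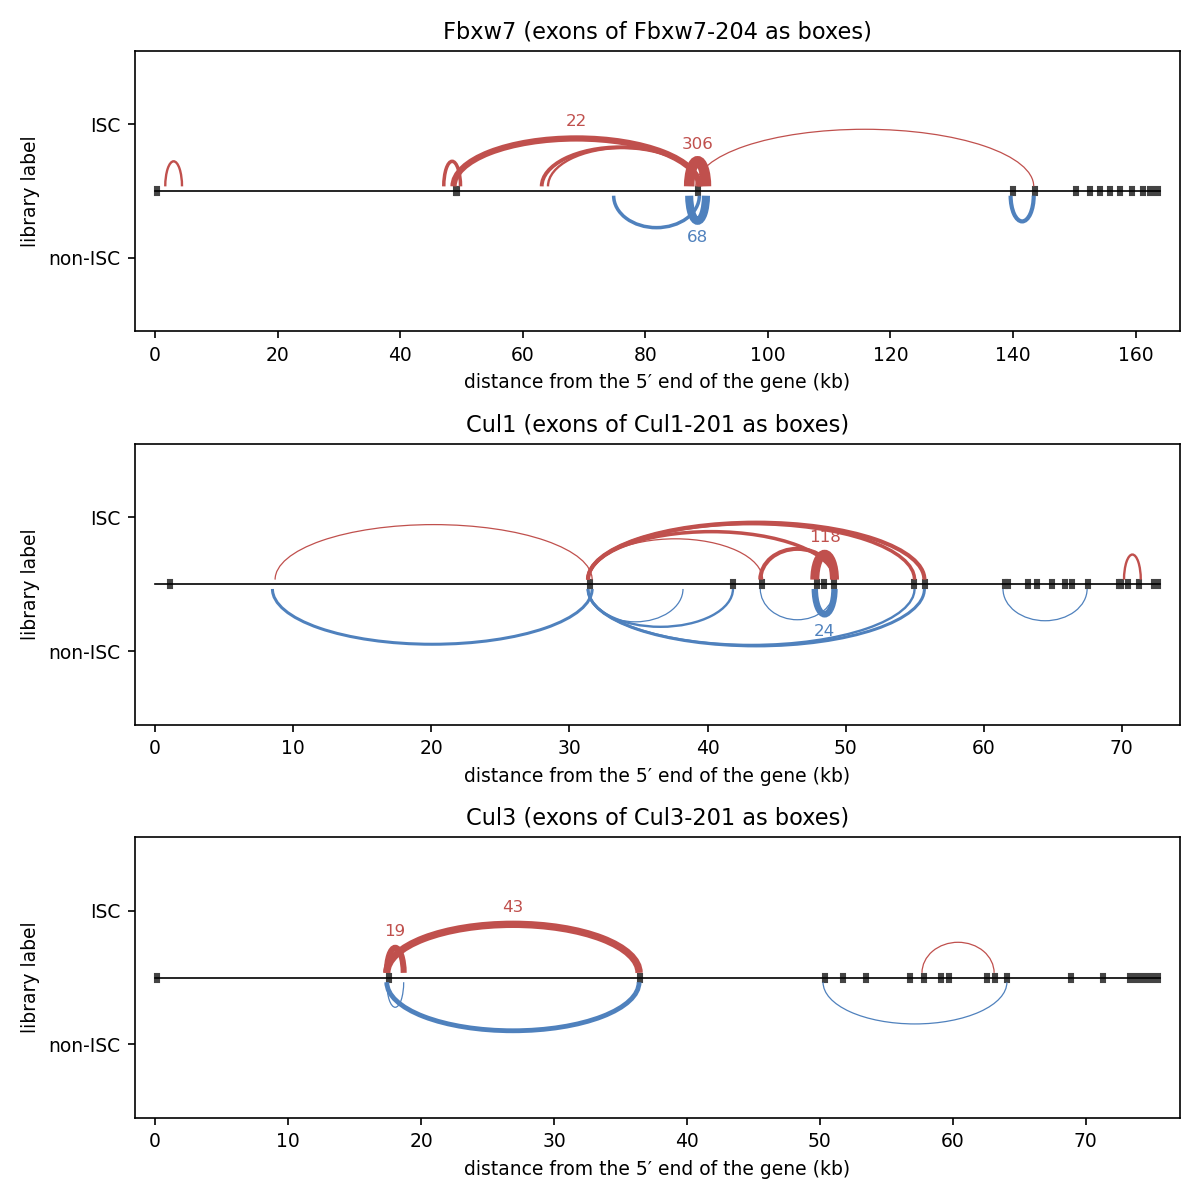
Circles of Fbxw7, Cul1 and Cul3 drawn as arcs between their junction ends, against distance from the 5′ end of the gene in kb, with exons of 1 transcript as boxes. Arcs above the line are from the library labelled ISC and arcs below from the library labelled non-ISC, line width grows with the log of the reads, numbers give reads from 10 up, and arc height and the width of the shortest arcs are for display. The arcs labelled 306 and 68 (Fbxw7), 118 and 24 (Cul1) and 43 (Cul3) mark the leading circles.

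BTRC and FBXW11 are paralogous F-box receptors, and Fbxw11 was the one host gene with a ratio below 1. Fbxw11 (chr11:32642724-32746816, plus strand) had 22 reads labelled ISC and 19 labelled non-ISC, a ratio of 0.564 (0.292 to 1.10) that was not called. Scaled to library totals the ratio was 1.59, also not called, and with the deposited count it was 0.385, called lower. The circle with the most reads differed between its libraries, on few reads. The single-exon circle of exon 4 of Fbxw11-201 held 8 of the 22 reads labelled ISC, 36.4% (17.2 to 59.3), and is not listed for the library labelled non-ISC. The circle from 32652748 to 32711997 (exons 2 to 4 of Fbxw11-205) held 13 of the 19 reads labelled non-ISC, 68.4% (43.4 to 87.4), and has no entry in the library labelled ISC. The circle of exons 3 and 4, the only one with reads in both, had 6 and 6. Its share was 27.3% (10.7 to 50.2) labelled ISC and 31.6% (12.6 to 56.6) labelled non-ISC. With 8 reads against 6, which circle leads in the library labelled ISC was not resolved. The donor at 32711997 closed 14 of the 22 reads labelled ISC and all 19 labelled non-ISC.

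Btrc (chr19:45363734-45530013, plus strand) had 6 reads labelled ISC, all on a single-exon circle of 232 nt (exon 5 of Btrc-201), and 0 labelled non-ISC. The level labelled ISC was 38.3 per 1000000, and the 3 counts that a count of 0 allows labelled non-ISC come to 39.3, so a difference was not detectable at this depth. The exon that closes on itself in Btrc was aligned with 13 of the 14 exons of Fbxw11-201. Its best match was exon 4, the exon that closes on itself in Fbxw11, with 167 identical bases, 72.0% of the longer exon. The other exons compared reached at most 56.5%.

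Fbxo11 (chr17:87990859-88065291, minus strand), an F-box receptor whose known substrates include BCL6, had 23 reads on 6 circles labelled ISC and 8 reads on 2 circles labelled non-ISC, a ratio of 1.40 (0.605 to 3.62) that was not called. Each Fbxo11 circle had at most 8 reads, and none had reads in both libraries, beside 16.7% of all circRNAs that did. Its leading circle labelled ISC, exons 12 and 13, had 8 reads. Of the 8 reads labelled non-ISC, 4 were on exons 2 and 3 (88015399 to 88015712) and 4 on a span of 263 nt with no transcript that holds both ends. Of the 8 Fbxo11 circles, 3 begin at exon 2, after the longest intron of the transcript (49296 nt). Skp2, the F-box receptor for the cell cycle inhibitor p27, had no circRNA entry in either library. The gene's span (chr15:9111985-9155425) is overlapped by 3 circRNAs that the files place in Lmbrd2, with 3 reads labelled ISC and 3 labelled non-ISC.

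Among the cullins, Cul1 came first in level, followed by Cul3. Cul1 (chr6:47453398-47526139, plus strand), the scaffold of SCF ligases, had 142 reads labelled ISC and 37 labelled non-ISC, or 907 and 485 per 1000000. The ratio of 1.87 (1.30 to 2.76) lay below the 2-fold rule. It passed the rule at 2.30 with median-ratio scaling and at 5.27 when scaled to library totals. It also passed at 2.18 over circles with reads in both libraries, and at 2.08 over circles with both ends on exons of 1 transcript. It stayed not called with the deposited count, at 1.37 (1.08 to 1.76), and with reads halved, at 1.72 (1.04 to 2.94).

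The leading Cul1 circle, exons 5 to 7 with 306 nt, was called higher by itself, at 118 reads labelled ISC and 24 labelled non-ISC and a ratio of 2.40 (1.54 to 3.89). The deposited count of this circle is the same 118 and 24. Divided by the totals of the deposited counts, 10549856 labelled ISC and 3148641 labelled non-ISC, its ratio was 1.47 (0.940 to 2.38), not called. It held 83.1% (75.9 to 88.9) of the Cul1 reads labelled ISC and 64.9% (47.5 to 79.8) of its reads labelled non-ISC. These intervals overlap. The other 11 Cul1 circles had at most 6 reads in either library. Acceptor 47484744, exon 2 after the longest intron (30260 nt), began 6 of the 12 circles, which held 10.6% of the reads labelled ISC and 21.6% of those labelled non-ISC. Of these, the circle to exon 8 had 4 reads labelled ISC and 2 labelled non-ISC, and the circle to exon 9 had 6 and 3.

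Cul3 (chr1:80264923-80340480, minus strand) is the scaffold that binds BTB-domain receptors such as KEAP1. It had 63 reads labelled ISC and 11 labelled non-ISC, a ratio of 2.79 (1.46 to 5.88), and was called higher. Of these reads, 62 and 10 came from a pair of circles with the same acceptor, at exon 2. The circle of exons 2 and 3 of Cul3-201, 312 nt long, had 43 reads labelled ISC and 9 labelled non-ISC, a ratio of 2.33 (1.12 to 5.43). The circle of exons 2 and 3 of Cul3-203, 344 nt long, had 19 reads labelled ISC and 1 labelled non-ISC, a ratio of 9.26 (1.47 to 385) with a wide interval. With the deposited count none of these calls held: the ratio was 1.65 for the host gene, 1.41 for the leading circle and 0.977 for the second. With reads halved the host gene kept its call, at 2.36, and both circles lost theirs, at 2.21 and 5.01. The leading circle held 68.3% (55.3 to 79.4) of the Cul3 reads labelled ISC and 81.8% (48.2 to 97.7) of its reads labelled non-ISC.

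Cul4a (chr8:13105621-13147940, plus strand), the scaffold bound through DDB1, had 12 reads labelled ISC and 3 labelled non-ISC, a ratio of 1.95 (0.526 to 10.8) that was not called. With the deposited count the ratio turned to 0.159 (0.131 to 0.193), called lower. Its libraries shared no circle, where 16.7% of all circRNAs had reads in both. The circle of exons 15 to 17 had 10 of the 12 reads labelled ISC, with no entry in the other library. Cul5 (chr9:53614582-53670014, minus strand), which works with elongins and SOCS-box receptors, had 24 reads on 7 circles labelled ISC and 4 reads on 1 circle labelled non-ISC. Its ratio of 2.92 (1.005 to 11.6) was called higher, with the lower limit next to 1. The call was lost over circles with both ends on exons of 1 transcript, at 2.80 (0.958 to 11.2). The 1 circle with reads in both libraries, exons 8 to 12, had 6 reads labelled ISC and 4 labelled non-ISC, a ratio of 0.731 (0.173 to 3.52). The other 6 Cul5 circles are not listed for the library labelled non-ISC.

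**Figure D3:**
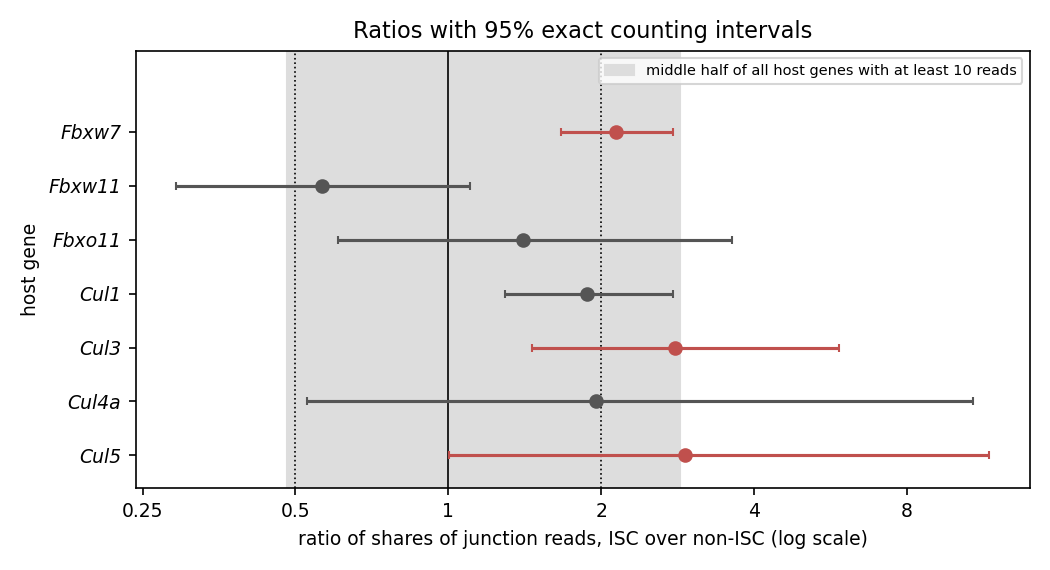
Ratios of the 7 host genes with at least 10 reads, labelled ISC over labelled non-ISC on a log axis, with 95% exact counting intervals. The grey band runs between the quartiles of all 2920 host genes (with 0.5 read added to each count), dotted lines mark 0.5 and 2, and called host genes are red. Fbxw7 has the narrowest interval, and the lower limit of Cul5, at 1.005, meets the line of equal levels.

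Levels were ordered within each library by junction reads, summed over the circles of a host gene. No length enters this measure, and an effect of circle length on the number of reads was not tested. In the library labelled ISC, Fbxw7 (1959 to 2428 per 1000000), Cul1 (764 to 1069) and Cul3 (309 to 515) had separate counting intervals. Cul5 (153), Fbxo11 (147), Fbxw11 (141) and Cul4a (76.6) overlapped with their neighbours. In the library labelled non-ISC, Fbxw7 (808 to 1275) and Cul1 (341 to 668) were apart, while Fbxw11 (249, 150 to 389) overlapped with Cul1 above it and with Cul3 (144) below it.

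Of the 51 circRNAs, 9 had at least 10 reads over both libraries, and 23 had 1 or 2. Of the 9, 6 were called higher in the library labelled ISC, 1 was called lower and 2 were not called, beside 32.4% higher and 23.0% lower over all 3659 circRNAs with that many reads. The 6 are the leading and second circles of Fbxw7 and of Cul3, the leading circle of Cul1 and that of Cul4a, and the 1 is the leading Fbxw11 circle labelled non-ISC. Of these 7, 2 have no entry in the other library, so their calls count that as 0. Among the 9, 2 had no reads labelled non-ISC and 1 had none labelled ISC, beside 21.6% and 8.96% of all circRNAs with that many reads, and 6 had reads in both, beside 69.5%. Reads in both libraries were found for 9 of the 51 circRNAs (17.6%), against 16.7% over all circRNAs. These 9 held 81.1% of the reads labelled ISC and 73.8% of those labelled non-ISC.

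Both junction ends lay on exons of 1 annotated transcript for 38 of the 51 (74.5%), against 70.6% of all circRNAs. Of the 38, 3 were single exons, 27 lay wholly in coding sequence and 17 had a length divisible by 3. An annotated start codon was inside 9, all of Fbxw7 or Cul1. Reading from it, 2 met no stop codon, both of them Fbxw7 circles that begin at 84903501, and 7 did. Exon 2 was the first exon in 15 of the 38 (39.5%), against 26.6% of all such circRNAs. The median spliced length was 508 nt, against 474 nt, and the median intron before the circle was 8817 nt, against 4799 nt. Among circRNAs with at least 10 reads the order of lengths turned, with medians of 344 nt for the 9 and 435 nt for all, and the median introns were 13248 nt and 8740 nt. These shares are descriptions, since circles of 1 gene share exons and introns.

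The other parts of cullin ligases were read from 6 lists of 228 gene symbols, of which 127 had circRNA reads and 56 at least 10. Of the 56, 11 were called higher in the library labelled ISC, 8 lower and 37 were not called. Over all host genes with that many reads, 26.7% were called higher and 22.7% lower. The summed ratio of these other genes was 1.20 (1.12 to 1.28), and their median log2 ratio was 0.10. No other cullin gene had 10 reads. Among core subunits and regulators, 2 of 10 were higher and 1 lower. Skp1a, the adaptor between CUL1 and F-box proteins, had 67 reads labelled ISC and 16 labelled non-ISC, a ratio of 2.04 (1.17 to 3.77). Nae1, a subunit of the enzyme that activates the cullin modifier NEDD8, had 24 and 0, and Cops2, of the COP9 signalosome that removes NEDD8, had 0 and 12.

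Of 14 other F-box genes with enough reads, 3 were higher and 5 lower, beside 26.7% and 22.7% of all host genes with that many reads. Kdm2b, also a histone demethylase gene, had 53 reads labelled ISC and 3 labelled non-ISC, a ratio of 8.61 (2.79 to 43.1). Fbxo42 had 199 and 29, a ratio of 3.35 (2.26 to 5.12), and Ccnf, the gene of cyclin F, 17 and 0. Among the 5 lower were Fbxw8, at 6 and 25 (ratio 0.117, 0.0393 to 0.292), Fbxl17, at 17 and 42 (ratio 0.197, 0.105 to 0.354), and Lmo7, at 5 and 18 (ratio 0.135, 0.0393 to 0.378). The list median log2 ratio was -0.12.

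Of 11 BTB adaptor genes for CUL3, 2 were higher and 1 lower. For this list and the others of this paragraph, the shares over all host genes were 26.7% higher and 22.7% lower. Spopl, a paralog of the receptor gene Spop, had 455 reads labelled ISC and 53 labelled non-ISC, a ratio of 4.18 (3.14 to 5.67), more reads than any of the 9 host genes but for Fbxw7 in the library labelled non-ISC. Klhl24 had 22 and 0, and Btbd9 23 and 32, a ratio of 0.350 (0.196 to 0.618). Of 14 genes around CUL4, 2 passed as higher, 1 as lower. Dcaf6 had 115 and 20, a ratio of 2.80 (1.73 to 4.76), Crbn, the cereblon gene, had 10 and 0, and the adaptor gene Ddb1 had 7 and 10, a ratio of 0.341 (0.110 to 0.993). Of 7 elongin-linked receptor genes 2 were higher and none lower: Socs7 had 33 and 0, and Pcmtd1 54 and 7, a ratio of 3.76 (1.71 to 9.80).

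**Figure D4:**
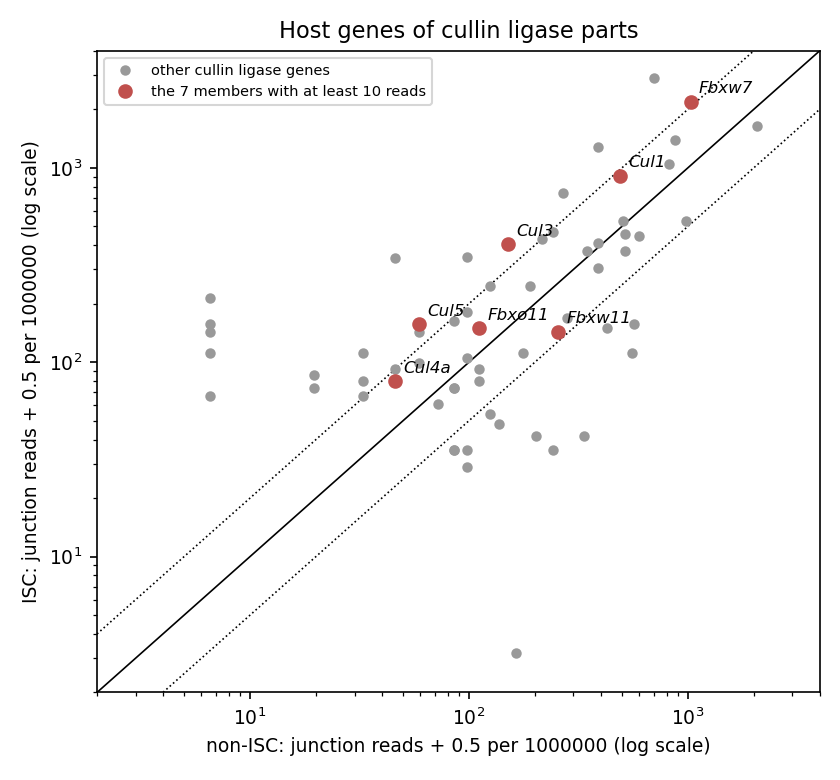
Levels of the 7 host genes (red, named) and 56 other cullin ligase genes (grey) with at least 10 reads, the library labelled ISC on the vertical and the library labelled non-ISC on the horizontal log axis, each as junction reads plus 0.5 per 1000000. The solid line marks equal levels and the dotted lines a ratio of 2 in either direction. Grey points lie on both sides, 11 called higher and 8 lower, beside 26.7% and 22.7% of all host genes with at least 10 reads.

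Host genes of known substrates of these receptors were counted in the same way, and the shares over all host genes were again 26.7% higher and 22.7% lower. Of 9 FBXW7 substrate genes with enough reads, 3 passed as higher and 2 as lower. Myb had 105 reads labelled ISC and 10 labelled non-ISC, a ratio of 5.12 (2.68 to 11.0), while Med13l had 25 and 0 and Ccne2, of cyclin E2, 24 and 0. Mtor had 4 and 19, a ratio of 0.103 (0.0254 to 0.309), and Srebf2 14 and 20, a ratio of 0.341 (0.159 to 0.710). Of 7 substrate genes of BTRC, FBXW11 or SKP2, 2 were higher and 3 lower. Rest had 40 and 0, and Clspn, the checkpoint gene of claspin, 24 and 2. Ctnnb1, of beta-catenin, had 42 and 57, a ratio of 0.359 (0.235 to 0.545), Yap1 had 2 and 9, and Wee1 16 and 17, a ratio of 0.459 (0.217 to 0.966).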

How the data were processed

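Per the labels' protocols, RNA of sorted cells was cleared of rRNA and of linear molecules (RNase R), broken into pieces of about 200 bp and sequenced from both ends for 150 nt. Trimmomatic 0.36, FastQC and mm9 appear in the submitters' processing notes. Aligner and circRNA caller: not given in the sources used here. Per the file headers, the authors' files list a junction count beside a count and an RPM value for every circRNA. What the deposited count holds beyond junction reads is not stated. The deposited RPM values, set against the counts, imply library totals of 52636694 (ISC) and 72271995 (non-ISC) reads.

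Junction counts were used, over totals of 156582 and 76331. The junction ends matched GENCODE M21 on GRCm38 exon starts for 79.4% and 81.1% of circRNAs with reads, and at most 0.246% when moved by 1 nt, so coordinates are GRCm38, counted from 1. Where several transcripts hold both ends, the first by name of the basic protein-coding ones is used. A circRNA with no entry counts as 0 in sums; entries labelled non-ISC with 0 junction reads numbered 6122. Ratios have exact conditional (Clopper-Pearson) intervals, shares exact binomial ones, both at 95%; mates of a pair may both cross a junction, so intervals may be too narrow. The median log2 ratio uses a pseudocount of 0.5 read. The rule was tested on simulated data with known folds, drawn with counting error only, so spread between libraries was not covered. Python 3.11.15, pandas 2.3.3, scipy 1.17.1 and matplotlib 3.10.9 were used.

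The members and gene lists were chosen with earlier results of these data known. The genes named are all members, with their circRNAs that have at least 10 reads or lead in a library. From each other list at most 3 called genes per direction are named. They are those whose interval, by its limit nearer to 1, lay farthest from 1. After the files were seen, 2 symbols that do not belong to those gene families, neither with an entry, were removed from the lists. Alternatives were scaling to library totals or by median ratio, the deposited count, no minimum or 50 reads, halved reads, circRNAs in both libraries, a fold of 1.5, circRNAs on exons of 1 transcript, and leaving out each member.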

Additional observations from a re-analysis of the deposited data

Results flagged for a closer look

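A deposited count above 3 stands beside 0 junction reads for 3 circRNAs of these host genes, all labelled non-ISC, a signal outside the measure used above. The Fbxw7 circRNA from 84878354 to 84904079 has a deposited count of 12 labelled ISC, with 5 junction reads, and 55 labelled non-ISC, with 0. The Fbxw7 circRNA from 84863964 to 84904079, of exons 2 to 4, has a count of 72 labelled ISC, with 22 junction reads, and 10 labelled non-ISC, with 0. The Btrc circRNA from 45502932 to 45507870, which shares its acceptor with the single-exon circle, is not listed for the label ISC and has a count of 14 labelled non-ISC. What these counts hold was not tested.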

How the results depend on the processing

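No paired analysis was possible because each group has 1 library and no result comes from a test, and no replicate could be left out. The number of these host genes called higher, 3, was 6 when scaled to library totals, which moves every log2 ratio up by 1.49, and 0 with the deposited count, where 2 were lower in place of 0. The summed ratio of 1.93 was 5.44 with library totals, 2.38 with median-ratio scaling (a shift of 0.30 on the log2 scale) and 0.611 with the deposited count. The Fbxw7 ratio of 2.14 was 6.02 with library totals and 0.935 with the deposited count. The deposited count was divided by its own totals, 10549856 labelled ISC and 3148641 labelled non-ISC. That alone took the leading Fbxw7 circle, whose deposited count equals its junction reads, from 2.19 to 1.34. Of the members' circRNAs, 15 were higher and 9 lower with the deposited count, 3 and 0 with a minimum of 50 reads, 3 and 0 with reads halved, and 0 were lower among those with reads in both libraries. The second Cul3 circle turned to 0.977 with the deposited count, and Cul5 to 0.731 over circles with reads in both libraries. With reads halved, Cul5, at 3.26, and both Cul3 circles, at 2.21 and 5.01, lost their calls. For the other cullin ligase genes, 35 were higher and 2 lower with library totals. With median-ratio scaling 18 were higher, and with 50 reads 6 were higher and 3 lower. Shares called over all host genes and all circRNAs are given for the main setting only. The counts of calls under the other settings therefore cannot be read as particular to these genes. Leaving out each member in turn kept the summed ratio between 1.74 and 2.12. The cause of these changes was not tested beyond what each setting does by construction. Over both libraries, reads were fewest for Btrc (6 and 0), Cul4a (12 and 3) and Cul5 (24 and 4). Skp2 had no entry in either library, and the reason was not tested.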
